A study of Mus musculus with 27 samples.

Results

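Genes named Zfp and a number code mostly for zinc finger proteins. They were followed here in wild-type and *Firre* KO mouse embryonic fibroblasts (MEFs), primary cultures prepared from embryos. The members are the genes whose symbol is Zfp, a number and at most 1 letter, with a mean expected count of at least 50 over all libraries. The expected count is the estimated number of reads of a gene. The table of 37310 genes holds 369 genes with such a name, of which 320 are members (*Zfp319* and *Zfp783* have 2 entries each). The other 49 lie under the minimum, and 4 of these have 0 counts in every library. *Zfp69* (50.3) and *Zfp950* (52.9) lie just over the minimum, and *Zfp781* (47.9) and *Zfp78* (42.8) just under it. All 320 members passed the filter on low counts and are among the 15387 genes tested.

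RNA-seq was performed on 12 libraries in 4 groups of 3 replicates. The groups are female wild-type, female *Firre* KO, male wild-type and male *Firre* KO MEFs. *Firre* is a long noncoding RNA gene of chromosome X, and the KO allele lacks the whole locus, which was removed between loxP sites. Per the study's methods, each line came from 1 embryo at day E13.5 without head, limbs and viscera, so it can hold cells other than fibroblasts, and was used at an early passage. No strain or treatment was given in the labels of these groups. Nothing in the labels states whether replicates of a group came from separate embryos, so p-values measure the spread between these libraries, which may be technical.

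The libraries held 42986516 to 65454660 expected counts. *Firre* (6720401G13Rik in the annotation) had 0 counts in all 6 KO libraries and 90 to 307 in the 6 wild-type libraries, and *Xist* and 4 genes of chromosome Y matched the labelled sex in all 12. The 12 fibroblast markers examined were all tested, with a summed level of 16300 to 24100 CPM (expected counts per library scaled to a common depth) over the 12 libraries. Male wild-type replicate 3 and male *Firre* KO replicate 3 stood apart. A member differed from the mean of its group by a median of 0.139 and 0.123 (log2) in these libraries, and by 0.048 to 0.094 in the other 10. Both departed in the same direction. The mean log2 level of members with a high exon GC content (over 50%) minus that of members with a low one (up to 42.4%) was −0.194 and −0.145 in them and 0.09 to 0.141 in the other 4 male libraries. Whether they share a preparation is not given in the sources used here.

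Most proteins of this kind hold C2H2 fingers. A finger is a short loop that folds around a zinc ion, which is gripped by a pair of cysteines and a pair of histidines, and fingers in a row read a DNA sequence. Many also carry a KRAB box, which recruits the corepressor *Trim28* and with it the histone methyltransferase *Setdb1* and HP1 proteins. KRAB zinc finger proteins are best known for silencing retroelements and for keeping imprints. Their genes arose by repeated local duplication, so neighbours can be similar in sequence. The name also covers unrelated proteins, among them binders of mRNA and a LIM protein of the cytoskeleton.

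The DNA of 1 finger is shown for 3 members to make this structure visible, with the cysteine codons (TGT or TGC) and histidine codons (CAC or CAT) in capitals. Each is the first finger of the longest annotated protein, 63 bases long, in the coding exons of the build NCBIM37 (mm9). *Zfp146* is the member with the highest level, *Zfp57* an imprint keeper, and *Zfp711* a promoter activator of chromosome X.
Zfp146 (chr7:30947521-30947583, minus strand): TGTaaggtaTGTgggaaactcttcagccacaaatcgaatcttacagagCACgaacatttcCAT
Zfp57 (chr17:37146624-37146686, plus strand): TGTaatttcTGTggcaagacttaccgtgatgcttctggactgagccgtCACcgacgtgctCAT
Zfp711 (chrX:109746032-109746094, plus strand): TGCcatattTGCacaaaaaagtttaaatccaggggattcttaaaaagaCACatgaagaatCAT
The 4 capital codons stand at the same places in all 3, while the bases between them differ.

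Searched with this spacing, also allowing longer gaps between the paired cysteines or histidines, the annotated proteins of 308 members hold at least 1 finger. The median is 10 fingers and the largest number is 36. The conserved linker that joins classical fingers occurs in 226 members. A KRAB box was found by its conserved residues in 123 members. Boxes that depart from the pattern searched can be missed. Members without a KRAB box are therefore those in which none was found. Of the 12 members without a finger pattern, 10 code for a protein and 2 have no annotated coding sequence.

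The members were spread unevenly over the genome. Chromosome 7 holds 76 of them, chromosome 17 holds 42, chromosome 13 holds 29, chromosome 8 holds 24 and chromosome 9 holds 20. On chromosome 7 they are 6.7% of the genes tested, compared with 0.443% on chromosome 1. With neighbours taken as members at most 200 kb apart, 107 members lie in 12 runs of at least 5. The largest run, from *Zfp712* to *Zfp273* on chromosome 13 (67139530 to 67927937), has 16 members. The run from *Zfp677* to *Zfp946* on chromosome 17 (21520712 to 22593656) has 15, of which 13 hold a KRAB box. Of the other members, 133 have no other member within that distance.

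Reads shared between such neighbours bear on the counts. An expected count that is not a whole number shows that reads were divided between genes or transcripts. Counts were whole in all 12 libraries for 174 members (54.4%), compared with 58.7% of all genes tested. In the run of 16 on chromosome 13, 14 members had counts that were not whole, and in the run of 15 on chromosome 17, 12. The values of members in these runs are therefore uncertain to the extent that the authors' counting divided reads between copies.

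Levels are compared between genes per length, as approximate TPM, in which the expected count is divided by the merged exon length and every library has the same total. The median member had 7.54 TPM, with quartiles of 3.88 and 15.5, compared with a median of 11.8 for all genes tested. Of the 320 members, 117 lay above that median. Together they took 0.354% to 0.42% of the TPM of a library. The 10 highest members made up 15.9% of the summed level of all members. KRAB members had a median of 5.74 TPM, and the 185 finger members without a KRAB box had 11.0 TPM.

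The highest members were *Zfp146* (81.6 TPM), *Zfp207* (79.8), *Zfp330* (72.7), *Zfp36* (67.1), *Zfp106* (63.0) and *Zfp706* (55.2). A KRAB box was found in none of these 6. *Zfp146* is a small protein that consists almost wholly of fingers. Its level in CPM was 60.3, 55.0 and 59.5 in female wild-type MEFs, 56.1, 57.6 and 55.9 in female *Firre* KO MEFs, 63.3, 58.5 and 66.7 in male wild-type MEFs and 57.2, 61.9 and 65.6 in male *Firre* KO MEFs. Each pair of groups with the same sex overlapped, and only the female *Firre* KO and the male wild-type libraries were apart. *Zfp207* binds the spindle checkpoint protein Bub3, *Zfp330* is a nucleolar protein, and *Zfp36* (tristetraprolin) marks AU-rich mRNAs for decay. The lowest members were *Zfp536* (0.511 TPM), 1 entry of *Zfp783* (0.598) and *Zfp711* (0.627).

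**Figure D1:**
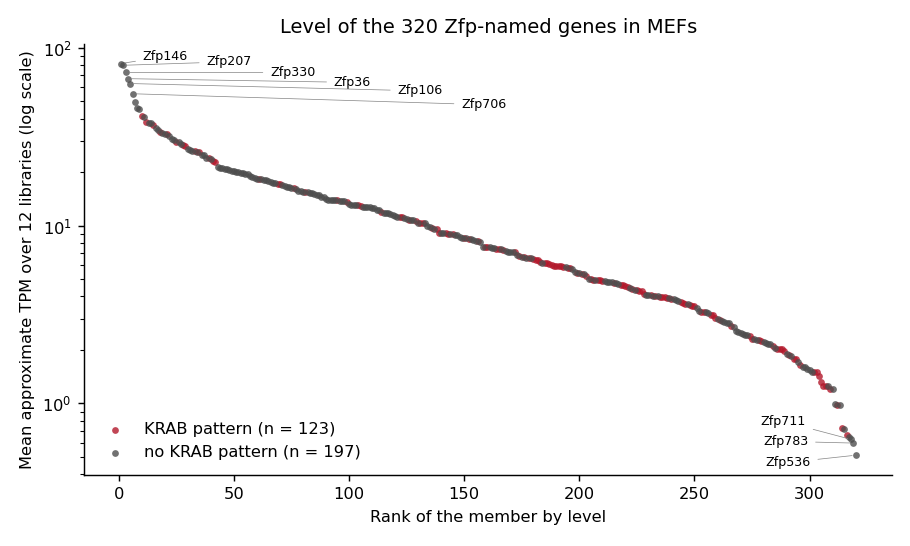
Mean approximate TPM over 12 libraries (log scale) of the 320 members, ordered by level, with KRAB members in red. The curve falls from 81.6 for *Zfp146* to 0.511 for *Zfp536*, and no KRAB box was found in the 6 labelled members at the top.

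The share of each library's expected counts taken by the members was 0.574% ± 0.0132 (SD, n = 3) for the wild-type females and 0.556% ± 0.00676 in female *Firre* KO MEFs. It was 0.589% ± 0.0297 in male wild-type MEFs and 0.588% ± 0.0354 in male *Firre* KO MEFs. The 3 female *Firre* KO libraries (0.564%, 0.550% and 0.555%) lay below the female wild-type libraries (0.567%, 0.565% and 0.589%). The male libraries lay between 0.564% and 0.629%, and the 2 highest were wild-type replicate 3 (0.622%) and *Firre* KO replicate 3 (0.629%), which stood apart above.

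Replicates were compared through the SD of log2 CPM within groups, pooled over the 4 groups (8 degrees of freedom). The median member had an SD of 0.125. When other genes were taken in classes of equal abundance (4 classes per 10-fold of the mean count), their median SD, weighted by the members in each class, was 0.142. The spread of 182 of 320 members lay under the median of the other genes of their class. In the class with mean counts from 100 to 178, the 39 members had a median of 0.183 and the 772 other genes 0.224. Between 562 and 1000 the order was the other way, with 0.115 for 53 members and 0.101 for 1553 other genes.

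The smallest spread was that of *Zfp507* (SD 0.022), followed by *Zfp746* and *Zfp830* (both 0.026). *Zfp507* measured 34.9, 34.1 and 34 CPM in female wild-type MEFs and 34.4, 34.5 and 35.3 in female *Firre* KO MEFs. In male MEFs it measured 41.7, 40.2 and 40 without and 40.6, 40.7 and 40.9 with the deletion, so that both male groups lay above both female groups. The counts of *Zfp507* were not whole in any library. The largest spread was that of *Zfp950* (SD 0.563), *Zfp760* (0.488) and *Zfp536* (0.444), of which *Zfp950* and *Zfp536* had mean counts of only 52.9 and 63.4. *Zfp760*, a KRAB member of the run on chromosome 17, was deeply covered (mean count 847). It measured 9.11, 9.78 and 20.9 CPM in the male wild type and 9.17, 9.98 and 21.9 in male *Firre* KO MEFs, with the high value in the library numbered 3 in both. In female MEFs it measured 25.0, 22.4 and 22.7 CPM in wild type and 17.7, 14.6 and 18.0 with the deletion.

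**Figure D2:**
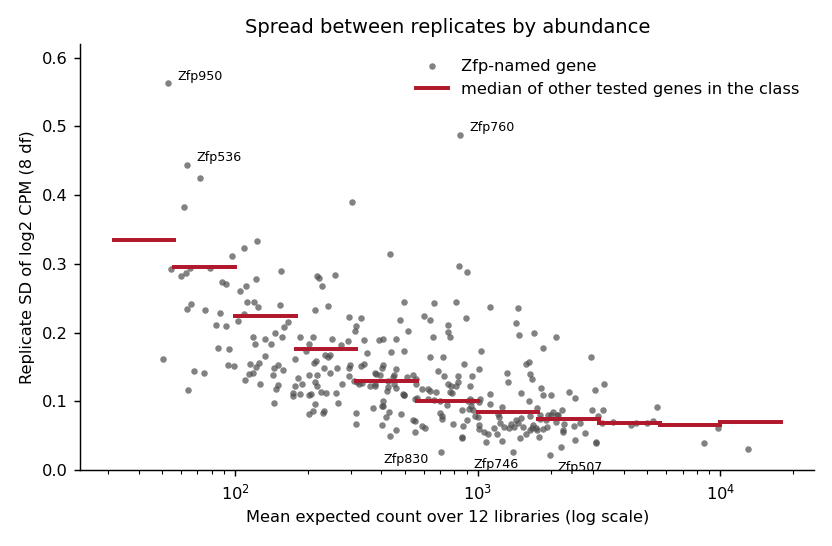
SD of log2 CPM between replicates (8 degrees of freedom) against the mean expected count (log scale) of each member, with red lines for the median of the other tested genes in each class of abundance. Members lie on both sides of the lines, and *Zfp950* (SD 0.563), *Zfp760* (0.488) and *Zfp536* (0.444) are the highest.

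The question of the comparison within each line is whether loss of *Firre* changes the level of these genes. It changed none of them past the thresholds. In female MEFs 0 of 320 members passed an adjusted p under 0.01 and a 2-fold change in edgeR's quasi-likelihood test, where 0.0065% of all genes tested did (1 gene, *Firre* itself). For males it was again 0 of 320, with a background of 0.0065%, and averaged over the sexes 0 of 320, with a background of 0.0065%. The KO effect differed between the sexes past the thresholds for 0 of 320 members, with a background of 0%. DESeq2 called 0 members in each of these comparisons too. The smallest adjusted p of a member was 0.513 in female and 1 in male MEFs.

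The members at an unadjusted p under 0.05 were 17 in female MEFs (background 7.55%), 4 in male MEFs (background 2.06%), 13 averaged over the sexes (background 6.24%) and 8 for the difference between the sexes (background 3.19%). As shares of the 320 members these are 5.31%, 1.25%, 4.06% and 2.5%, each under its background. DESeq2 gave 17, 5, 13 and 8. The counts moved by over 1.5 times in some alternatives, and the share of all genes tested is given for the same fit. The female count was 8 (2.5%, all genes 4.34%) without wild-type replicate 1, 9 (2.81%, all genes 5.82%) without *Firre* KO replicate 2, 36 (11.2%, all genes 12.5%) with only the female libraries fitted and 49 (15.3%, all genes 14.4%) without both male libraries numbered 3. Without this pair the median SD of the members between replicates was 0.088 instead of 0.125. The male count was 17 (5.31%, all genes 4.71%) without *Firre* KO replicate 3, 10 (3.12%, all genes 3.23%) without wild-type replicate 2, 9 (2.81%, all genes 3.43%) without wild-type replicate 3, 2 (0.625%, all genes 1.94%) without wild-type replicate 1 and 10 (3.12%, all genes 4.29%) without both numbered 3. The averaged count ranged from 6 (1.88%, all genes 4.17%) without female wild-type replicate 1 to 31 (9.69%, all genes 9.84%) without male *Firre* KO replicate 3. It was 7 without female *Firre* KO replicate 2 (all genes 5%), 8 without male *Firre* KO replicate 1 (all genes 6.07%), 22 without male wild-type replicate 2 (all genes 6.61%) and 28 without both male libraries numbered 3 (all genes 8.97%). For the difference between the sexes it was 5 (1.56%, all genes 2.22%) without male wild-type replicate 1, 20 (6.25%, all genes 6.93%) without male wild-type replicate 3 and 18 (5.62%, all genes 7.76%) without both numbered 3. The 95% intervals bound what could have been missed. In female MEFs the interval of the fold change lay within 2-fold for 315 members and within 1.5-fold for 283. In male MEFs it lay within 2-fold for all 320 members and within 1.5-fold for 293. The median absolute log2 fold change of the members was 0.0796 in female and 0.0511 in male MEFs. For other genes of equal abundance, the mean of the class medians, weighted by the members, was 0.0914 and 0.0694. Taken 1 by 1, 162 of 320 members in female and 193 in male MEFs lay under the median of other genes of their class.

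In female MEFs, the members with the smallest p were *Zfp37*, *Zfp787* and *Zfp617*. *Zfp37*, a protein with 12 fingers whose counts were not whole in 11 libraries, measured 20.1, 18.0 and 16.9 CPM in wild-type and 13.3, 13.9 and 16 in *Firre* KO MEFs, so the groups did not overlap. Its log2 fold change was −0.345 (SE 0.098, edgeR adjusted p = 0.513). In male MEFs, where it measured 12.1 to 14.5 CPM in wild type and 11.5 to 13.3 with the deletion, the log2 fold change of *Zfp37* was −0.066 (SE 0.097).

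*Zfp787* had the opposite sign. It measured 6.36, 8.38 and 8.51 CPM in female wild-type MEFs and 9.76, 9.91 and 9.20 in female *Firre* KO MEFs, a log2 fold change of 0.311 (SE 0.103, edgeR adjusted p = 0.543). Without female wild-type replicate 1, its lowest library, the log2 fold change was 0.189. The KRAB member *Zfp617* measured 29.7, 30.7 and 30.4 CPM in wild type and 27.4, 26.2 and 27.6 with the deletion (log2 fold change −0.161, SE 0.059, edgeR adjusted p = 0.58). Its replicates lay close together and its groups did not overlap.

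In male MEFs, *Zfp526*, *Zfp558* and *Zfp385a* had the smallest p. *Zfp526* measured 11.0, 10.9 and 10.6 CPM in wild-type and 10.1, 9.65 and 9.05 in *Firre* KO MEFs, with a log2 fold change of −0.177 (SE 0.061). *Zfp558*, a KRAB member near the minimum (mean count 64.3), measured 1.47, 1.23 and 1.39 CPM in wild type and 1.08, 0.956 and 1.03 with the deletion, a log2 fold change of −0.41 (SE 0.149). *Zfp385a*, which acts with p53 and in mRNA transport, had a log2 fold change of −0.146 (SE 0.055). The edgeR adjusted p was 1 for all 3, although the male groups of none of them overlapped.

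Averaged over the sexes, *Zfp580* had the smallest p, followed by *Zfp787* and *Zfp37*. *Zfp580* measured 2.50, 2.67 and 3.20 CPM in female wild-type and 3.53, 4.42 and 3.98 in female *Firre* KO MEFs. Male libraries measured 2.23, 2.71 and 1.67 CPM in wild type and 3.10, 3.07 and 2.33 with the deletion. The mean log2 fold change was 0.435 (SE 0.133, edgeR adjusted p = 0.737). The female groups of *Zfp580* did not overlap, and the male groups did, through *Firre* KO replicate 3.

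The difference of the KO effect between the sexes had its smallest p at *Zfp219*, *Zfp526* and *Zfp558*. *Zfp219* measured 23.0, 23.0 and 24.6 CPM in female wild-type and 26.6, 25.3 and 27.7 in female *Firre* KO MEFs, against 23.4, 22.5 and 23.8 and 22.4, 21.9 and 19.2 in male MEFs. Its effect was 0.305 (log2, SE 0.09) larger in female than in male MEFs, with an edgeR adjusted p of 1. The difference was 0.274 (SE 0.087) for *Zfp526* and 0.65 (SE 0.212) for *Zfp558*, with the same adjusted p.

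**Figure D3:**
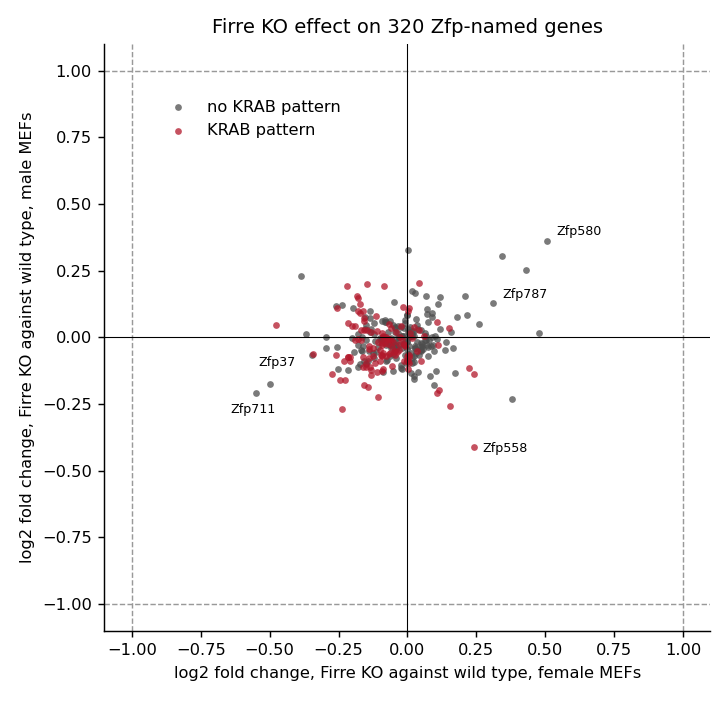
Log2 fold change of *Firre* KO against wild type in female (horizontal) and male (vertical) MEFs for the 320 members, with KRAB members in red and dashed lines at the 2-fold threshold. No member reaches a dashed line, and the cloud lies somewhat to the left of and below 0, with 137 members below 0 in both sexes.

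Small differences of the members leaned to one side. In female MEFs 210 members (65.6%) had a log2 fold change below 0, where the background was 50.1%, and in male MEFs 196 (61.3%), where it was 52.3%. Averaged over the sexes 229 (71.6%) lay below 0 (background 51.2%), and 137 (42.8%) did so in both sexes (background 29.3%). The medians were small, with −0.045 in female, −0.02 in male and −0.037 averaged, compared with 0, −0.004 and −0.002 for all genes tested. Scaled by library size alone, 233 female members (72.8%, all genes 55.5%, median −0.061) lay below 0. By that scaling 172 male members (53.8%, all genes 46.6%, median −0.009) did. The groups did not overlap and were lower with the deletion in female MEFs for 48 members (15.0%, background 8.2%), and higher for 17 (5.31%, background 10.9%). In male MEFs 10 members (3.12%, background 2.52%) were lower without overlap and 2 (0.625%, background 2.78%) were higher.

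In male MEFs the direction of the median depended on which libraries were left out. The 2 male libraries numbered 3 departed together. Leaving out 1 male library therefore gives that departure unequal weight in the 2 male groups. The median of the members was −0.02 with all libraries, 0.039 without wild-type replicate 3 and −0.062 without *Firre* KO replicate 3, and the number below 0 went from 196 to 102 and 239. Without *Firre* KO replicate 1 the median was 0.011, without *Firre* KO replicate 2 it was 0.001, and without wild-type replicate 2 it was −0.055. Without both libraries numbered 3, 180 male members (56.2%, all genes 51.5%) lay below 0 and the median was −0.014. The average over the sexes ranged from −0.056 to −0.006 when 1 library was left out, with the value nearest to 0 without male wild-type replicate 3. In female MEFs the median stayed between −0.055 and −0.035 whichever library was left out. In bulk RNA, fewer cells of a type and less RNA per cell cannot be told apart. No marker of another cell type was called with the deletion (0 in each list). Of the 8 epithelial markers 7 were lower in female *Firre* KO MEFs, with a summed level of 81.2 to 84.8 CPM against 77.1 to 136 in wild type, and of the 6 proliferation markers all were higher, with 1180 to 1360 against 1110 to 1180 CPM. Of the 12 fibroblast markers 9 were lower, with 17600 to 20100 against 16300 to 20000 CPM, and of the 6 endothelial markers 5, with 27.6 to 34.1 against 27.6 to 37.9 CPM. An unadjusted p under 0.05 was reached by 3 epithelial, 3 fibroblast, 0 proliferation and 0 endothelial markers. Of the 7 tested neural markers 5 were lower, of the 8 tested muscle markers 3, of the 12 macrophage markers 6 and of the pluripotent and germ cell markers both that were tested, with 0 at that p in each. In male *Firre* KO MEFs all 6 proliferation markers were again higher (1100 to 1550 against 1070 to 1250 CPM). Of the tested markers, 7 of 8 muscle (79.6 to 116 against 104 to 146 CPM), 6 of 7 neural (464 to 545 against 461 to 635 CPM), 4 of 6 endothelial, 8 of 12 fibroblast, 2 of 8 epithelial and 3 of 12 macrophage markers were lower in males, and 1 marker, an endothelial one, had an unadjusted p under 0.05. Averaged over the sexes, all 6 proliferation markers were higher, 3 of them at that p, and 7 of 8 muscle, 5 of 7 neural, 5 of 6 endothelial, 7 of 12 fibroblast, 7 of 8 epithelial and 3 of 12 macrophage markers were lower, with 1 fibroblast marker at that p. Their part in the lean was not tested.

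The lean of the female members moved with base composition. The members had a median exon GC content of 45.5%, and all genes tested 49.6%. Across the 320 members, the female log2 fold change and the GC content had a Spearman correlation of 0.502, compared with 0.213 across the 15067 other genes tested. In male MEFs the correlation was 0.0163. Genes in a library share its depth and preparation and are not independent, so these are descriptions. Split into 3 parts of nearly equal size by GC content, the part with the lowest (up to 42.4%) had 95 of 107 members (88.8%) below 0 in female MEFs, and of the other genes in that range 71.3% did. In the middle part it was 77 of 106 (72.6%), with 54.8% of other genes. In the part with the highest GC content (over 50%) it was 38 of 107 (35.5%), with 40% of other genes. The mean log2 level of the members in the highest part minus that in the lowest part was 0.008, 0.107 and 0.049 in female MEFs with *Firre* and 0.151, 0.214 and 0.216 in those without it, so these groups did not overlap.

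With the GC trend of each library removed, an alternative chosen after the data were seen, 195 female members lay below 0, the median was −0.027 and the correlation with GC content was 0.19. Averaged over the sexes, 217 then lay below 0, with a median of −0.025. The part of GC content in the lean was not tested beyond these values. The lean was also smaller among the 174 members with whole counts, of which 101 (58%) lay below 0 in female MEFs, with a median of −0.024. Their median GC content was 48.7%.

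**Figure D4:**
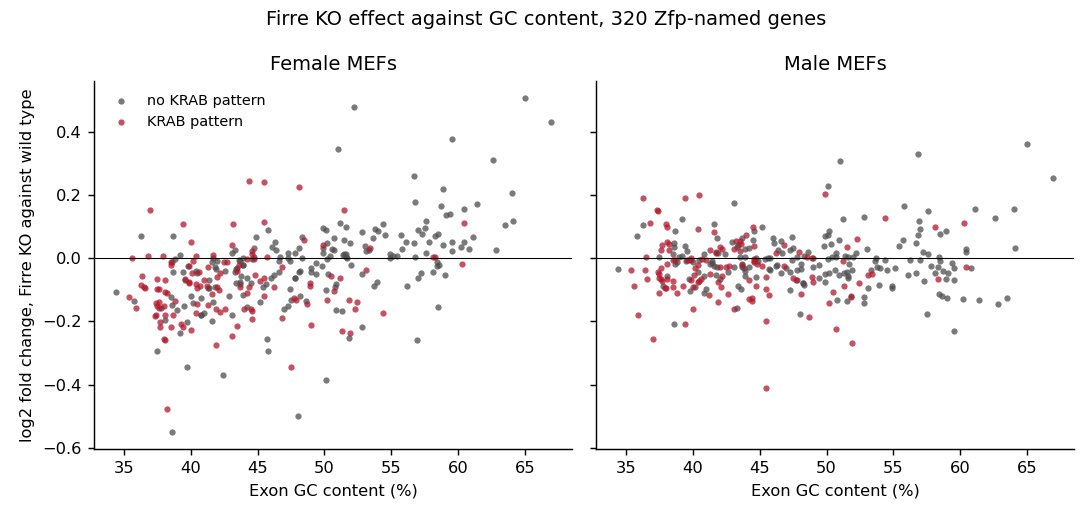
Log2 fold change of *Firre* KO against wild type in female (left) and male (right) MEFs against exon GC content for the 320 members, with KRAB members in red. In female MEFs the points rise from left to right (Spearman correlation 0.502), and in male MEFs they do not (0.0163).

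The counts below 0 were compared between members with and without a KRAB box. In female MEFs they were 99 of 123 KRAB members (80.5%, median −0.091) and 111 of the 197 other members (56.3%, median −0.011). KRAB members had a lower GC content, with a median of 42.0%, against 48.3% for the finger members without the box. Their level was also lower, with a median of 6.52 CPM against 15.8 CPM. Within the parts of low and middle GC content the shares were close, with 57 of 65 KRAB members (87.7%) and 38 of 42 others (90.5%) in the low part, and 30 of 41 (73.2%) and 47 of 65 (72.3%) in the middle part. In the high part they were 12 of 17 (70.6%) and 26 of 90 (28.9%). With the GC trend removed, 88 KRAB members (71.5%, median −0.054) and 107 others (54.3%, median −0.009) were below 0 in females. Of the 56 KRAB members with whole counts, 42 (75%, median −0.111) lay below 0 in female MEFs, and of the 118 other members with whole counts 59 (50%, median 0.001). An unadjusted p under 0.05 was reached by 3 KRAB members (2.44%, background 7.55%) in female MEFs, and 0 passed the thresholds.

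For males the counts were 83 of 123 KRAB members (67.5%) and 113 of 197 others (57.4%). The order of these male shares turned without wild-type replicate 3, where they were 31 (25.2%) and 71 (36%). Without *Firre* KO replicate 3 they were 102 (82.9%) and 137 (69.5%). Without both male libraries numbered 3 the male counts were 72 (58.5%) and 108 (54.8%). Averaged over the sexes, 106 KRAB members (86.2%) and 123 others (62.4%) lay below 0, with 74 (60.2%) and 98 (49.7%) without male wild-type replicate 3 and 112 (91.1%) and 131 (66.5%) without male *Firre* KO replicate 3. Without both male libraries numbered 3 the averaged counts were 100 (81.3%) and 131 (66.5%). Whether KRAB and other members differ was not tested.

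The 12 runs of neighbours varied in their values. Over all of them 73 of 107 members (68.2%) lay below 0 in female MEFs, and outside of them 137 of 213 (64.3%). In male MEFs the counts were 65 (60.7%) and 131 (61.5%). The 2 largest runs had 14 of 16 (median −0.123) and 14 of 15 (median −0.121) below 0 in females. It was 10 of 13 in the run from *Zfp84* to *Zfp146* on chromosome 7 (median −0.061) and 10 of 11 in the run from *Zfp871* to *Zfp101* on chromosome 17 (median −0.091). Of the other 8 runs, those that begin with *Zfp180*, *Zfp553*, *Zfp60* and *Zfp560* had 6 of 10, 5 of 8, 4 of 5 and 4 of 5 below 0. Those that begin with *Zfp398*, *Zfp628*, *Zfp787* and *Zfp329* had 2 of 8, 0 of 6, 2 of 5 and 2 of 5. A KRAB box was found in no member of the runs that begin with *Zfp628* and *Zfp60*, and in all 11 of the run from *Zfp871*. The male medians of the 12 runs ranged from −0.066 to 0.074.

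Members with known roles were examined by list. Of the factors of RNA and protein quality control, 9 of 10 listed were members, and 0 of 9 passed the thresholds in either sex. Their log2 fold changes ranged from −0.07 to 0.111 in female and from −0.146 to 0.125 in male MEFs. *Zfp598*, the ubiquitin ligase of collided ribosomes, had 29.7 ± 0.763 TPM in female wild-type and 30.0 ± 0.167 in female *Firre* KO MEFs (SD, n = 3). *Zfp622*, a maturation factor of the large ribosomal subunit, had 37.9 ± 2.96 and 40.1 ± 2.18, and *Zfp91*, also a ubiquitin ligase, had 46.2 ± 1.77 and 44.3 ± 1.43. *Zfp36* had 61.8 ± 1.48 and 64.3 ± 2.58. The ranges of 1 SD overlapped in each of the 4.

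Among activators at promoters, all 7 listed were members and 0 passed. *Zfp143*, which binds the promoters of many housekeeping genes, had 16.1 ± 0.342 TPM in female wild-type and 16.6 ± 0.94 in female *Firre* KO MEFs, and 19.7 ± 0.126 and 19.7 ± 1.79 in male MEFs. *Zfp281* had 33.4 ± 1.08 and 28.9 ± 0.272 in female MEFs (log2 fold change −0.18, edgeR adjusted p = 0.755), and 33.3 ± 5.88 and 32.9 ± 6.03 in male MEFs. The wide male SD of *Zfp281* came from the libraries numbered 3, with 68.4 and 66.6 CPM against 49.7 to 54.6 in the other 4. *Zfp410*, known as an activator of the *Chd4* gene, differed by −0.043 in female and −0.033 in male MEFs (log2).

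Of the factors of development and mesenchymal fate, all 9 listed were members and 0 passed. *Zfp423*, a commitment factor of fat precursors, was low, with 0.66 ± 0.15 TPM in female wild-type and 0.702 ± 0.0936 in female *Firre* KO MEFs. *Zfp503* had 26.4 ± 1.1 and 30.1 ± 4.0, the highest log2 fold change of the list in female MEFs (0.218, edgeR adjusted p = 0.602), and *Zfp467* had the lowest (−0.259, edgeR adjusted p = 0.694). *Zfp521*, which acts in precursors of bone and fat, had 11.4 ± 0.541 and 11.4 ± 0.87.

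Among factors of imprint keeping and retroelement silencing, 6 of 7 listed were members. *Zfp42*, a marker of pluripotent cells, was under the minimum, with a mean expected count of 1.83. *Zfp57* and *Zfp445*, which keep imprints, had 29.5 and 32.7 TPM, and *Zfp568*, which represses a placental promoter of *Igf2*, had 41.4 TPM. In female MEFs 5 of the 6 lay below 0, from −0.195 for *Zfp708* to 0.153 for *Zfp932*, and 0 passed. *Zfp445* measured 33.4, 32.6 and 33.2 CPM in female wild-type MEFs and 29.4, 28.4 and 30.6 in female *Firre* KO MEFs, without overlap (log2 fold change −0.168, edgeR adjusted p = 0.583). In male MEFs it measured 35.6 to 40.1 CPM in wild type and 35.5 to 40.4 with the deletion, with a log2 fold change of −0.008. *Zfp809*, a silencer of proviruses, differed by −0.11 in female and −0.128 in male MEFs (log2).

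The partners through which KRAB proteins act, such as *Trim28*, *Setdb1* and the HP1 genes, were listed too. Of 18 listed genes, 17 are in the table, with 18 entries, since *Atf7ip* has 2, and these 17 were expressed. Their median level was 45.2 TPM, and *Trim28* was highest with 202 TPM. With the deletion 0 of 18 passed the thresholds in either sex, and the log2 fold changes ranged from −0.101 to 0.19 in female and from −0.078 to 0.141 in male MEFs. The sum of their levels was 2090 to 2130 CPM in female wild-type and 2160 to 2220 in female *Firre* KO MEFs, which do not overlap. In males it was 2130 to 2270 and 2160 to 2440 CPM, which overlap. In female MEFs 11 of 18 entries were higher, and 3 had an unadjusted p under 0.05 in edgeR (background 7.55%). In male MEFs these counts were 10 and 0 (background 2.06%).

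Families with a similar finger were counted for comparison with the same minimum. In female MEFs 16 of 33 Zbtb genes, 9 of 14 Zscan and Zkscan genes and 9 of 18 Klf and Sp genes lay below 0, with medians of 0.005, −0.081 and 0.019. None of these genes passed the thresholds with the deletion in either sex. Their median GC contents were 51.1%, 50.7% and 50.5%, above that of the Zfp members. Whether the families differ was not tested.

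Members of chromosome X were examined for their position. *Firre* lies on this chromosome, and 7 members do too. The nearest, *Zfp280c*, lies 1961.2 kb from *Firre*. It measured 29.8, 28.9 and 31.7 CPM in female wild-type and 31.3, 29.8 and 29.8 in female *Firre* KO MEFs, with a log2 fold change of 0.009 (95% interval −0.209 to 0.226). In male MEFs it measured 32.6, 30.9 and 37.6 CPM in wild type and 30.0, 32.0 and 39.4 with the deletion (log2 fold change 0.006, interval −0.209 to 0.22). Both pairs of groups overlapped. *Zfp449*, at 5611.1 kb, had log2 fold changes of −0.011 and −0.025, and *Zfp275*, at 22599.5 kb, of 0.005 and 0.018.

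The other 4 members of chromosome X lay below 0 in female MEFs. Of all 553 genes tested on this chromosome 60.6% lay below 0, compared with 49.7% of genes outside chromosomes X and Y. The log2 fold changes of the 4 members were −0.111 for *Zfp182*, −0.209 for *Zfp300*, −0.294 for *Zfp185* and −0.55 for *Zfp711*. The last was the lowest of all members, from 2.03 ± 0.197 CPM in wild-type to 1.39 ± 0.00708 in *Firre* KO MEFs (SD, n = 3), and its interval of −1.197 to 0.097 includes 0 and a 2-fold change. *Zfp711* had a mean count of only 61.4.

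Between female and male wild-type MEFs, the libraries differ in sex, embryo and depth, which cannot be told apart. Of the 320, 2 members (0.625%) passed both thresholds, where 4.54% of all genes tested did and 4.82% of other genes of equal abundance. At an adjusted p under 0.01 and any fold, 13 members were higher in female MEFs (4.06%, background 10.4%) and 32 were lower (10%, background 12%), which is 14.1% in either direction (background 22.5%). These counts depend on the libraries. Without both male libraries numbered 3, 32 were higher (all genes 13.2%) and 32 lower (all genes 15.6%). With 1 wild-type library left out, 4 to 14 were higher and 20 to 25 lower. The number of higher members was 4 without female wild-type replicate 2 (all genes 6.33%), 7 without female replicate 3 (all genes 6.56%), and 5 without male wild-type replicate 1 (all genes 5.9%) or 2 (all genes 6.72%). The number of lower members was 21, 20 and 21 without female wild-type replicates 1, 2 and 3 (all genes 8.55%, 7.29% and 7.68%). The absolute log2 fold change lay under the median of other genes of equal abundance for 223 members. Its median over the members was 0.156, and the weighted mean of the class medians of other genes was 0.252. Whether the members differ from other genes was not tested. The median log2 fold change of the members, female minus male, was −0.061, and 0.007 without male wild-type replicate 3.

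Both called members, *Zfp185* and *Zfp711*, lie on chromosome X and were higher in female MEFs. *Zfp185* codes for a LIM protein of the actin cytoskeleton and holds no C2H2 finger. It measured 2.90, 3.73 and 3.45 CPM in female wild-type and 0.962, 1.05 and 1.33 in male wild-type MEFs, without overlap. Its log2 fold change was 1.594 (SE 0.187, edgeR adjusted p = 0.00013), and it remained called without any 1 library. In *Firre* KO MEFs it measured 3.03, 2.38 and 2.81 CPM in female and 0.88, 1.1 and 1.28 in male cells.

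The promoter of *Zfp185*, the called member with the largest change, is shown with its CpG dinucleotides in capitals. RefSeq lists 1 start for it, and the 250 bases before this start are given in the build GRCm38.p6.
Zfp185 (chrX:72987089-72987338, plus strand): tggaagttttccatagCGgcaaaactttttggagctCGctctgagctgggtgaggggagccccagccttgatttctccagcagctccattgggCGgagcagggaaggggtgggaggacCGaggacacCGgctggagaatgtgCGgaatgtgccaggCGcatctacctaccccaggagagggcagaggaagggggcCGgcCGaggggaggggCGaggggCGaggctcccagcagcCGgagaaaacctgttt
This stretch has a GC content of 63.2% and 12 CpG, an observed to expected ratio of 0.514. Promoters of 254 of the 320 members were matched in RefSeq. Over 300 bases around the start, their median GC content was 56.4% and their median CpG ratio 0.679, compared with 52.8% and 0.39 for all 27025 genes with a promoter. The ratio was over 0.6 for 61.8% of member promoters and for 35.5% of all. The core motif of Yy1, ATGGCGGC, occurred on either strand in 18 of 254 (7.09%) and in 2.6% of all promoters. Matched KRAB members had a median GC content of 52.3% and the other matched members 60.3%. A match is a description of letters and not a bound site. The 27025 genes were not filtered on counts, while the members were. The differences from them in GC content, CpG ratio and motif can therefore not be read as particular to the members.

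*Zfp711*, which brings the histone demethylase Phf8 to promoters, measured 1.94, 1.90 and 2.26 CPM in female wild-type and 0.776, 0.791 and 0.844 in male wild-type MEFs. Its log2 fold change was 1.339 (SE 0.301, edgeR adjusted p = 0.0053). The groups did not overlap, but the call was lost without any 1 of the 6 wild-type libraries (edgeR adjusted p = 0.0132 to 0.022), with a log2 fold change of at least 1.255. DESeq2 called these 2 members and *Zfp536* (edgeR adjusted p = 0.0158). Without female wild-type replicate 2 the called members were *Zfp185* and *Zfp612*, without male wild-type replicate 3 they were *Zfp185* and *Zfp760*, and without any 1 of the other 4 wild-type libraries *Zfp185* alone. *Zfp536* was also called without female *Firre* KO replicate 1 or male *Firre* KO replicate 3. Of the other 5 members of chromosome X, the KRAB member *Zfp182* passed an adjusted p under 0.01, with 3.34 ± 0.116 CPM in female and 5.19 ± 0.477 in male wild-type libraries (SD, n = 3, log2 fold change −0.637, edgeR adjusted p = 0.00116).

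Among members that were lower in female MEFs at an adjusted p under 0.01, *Zfp692* had the largest change and *Zfp57* the smallest p (both chosen after their values were seen). *Zfp57* measured 31.5, 32.5 and 31.5 CPM in female wild-type and 51.1, 47.1 and 49.9 in male wild-type MEFs (log2 fold change −0.633, SE 0.058, edgeR adjusted p = 3.21e-05). *Zfp692* measured 5.61, 5.88 and 5.80 against 11.0, 10.4 and 9.17 CPM (log2 fold change −0.82, SE 0.081, edgeR adjusted p = 4.74e-05). For both, the *Firre* KO libraries lay near the wild-type libraries of their sex. In the development list, 3 of 9 members passed an adjusted p under 0.01 without the fold limit, and all 3 (*Zfp516*, *Zfp238* and *Zfp467*) were lower in female MEFs. In the list of activators, 4 of 7 passed, of which *Zfp148* and *Zfp143* were lower and *Zfp64* and *Zfp711* higher. In the quality control list 2 of 9 passed, *Zfp106* and *Zfp598*, both lower, and in the silencing list, with 2 of 6, *Zfp57* was lower and *Zfp568* higher. The background for these counts is 22.5% of all genes tested, and nothing particular to a list is read from so few members.

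Marker genes of other cell types moved with this comparison. Compared with male cells, female wild-type cells had higher values of all 12 macrophage markers (11 called) and all 8 epithelial markers (5 called). The summed macrophage level was 61.5 to 112 CPM in female and 12.1 to 19.0 CPM in male wild-type libraries, and the epithelial level 77.1 to 136 and 41.7 to 54.4 CPM. Of the 8 tested muscle markers 7 were higher (3 called), of the 7 tested neural markers 6 (2 called) and of the 6 endothelial markers 5 (0 called). Of 6 proliferation markers 4 were higher (0 called), of 12 fibroblast markers 5 were higher (1 called) and 7 lower (1 called), and the pluripotent and germ cell markers summed to at most 1.1 CPM in any library. Their part in the differences of the members was not tested. Within female MEFs, the macrophage level was 61.5 to 112 CPM in wild type and 50.2 to 154 CPM with the deletion, and in *Firre* KO males 9.87 to 20.7 CPM.

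**Figure D5:**
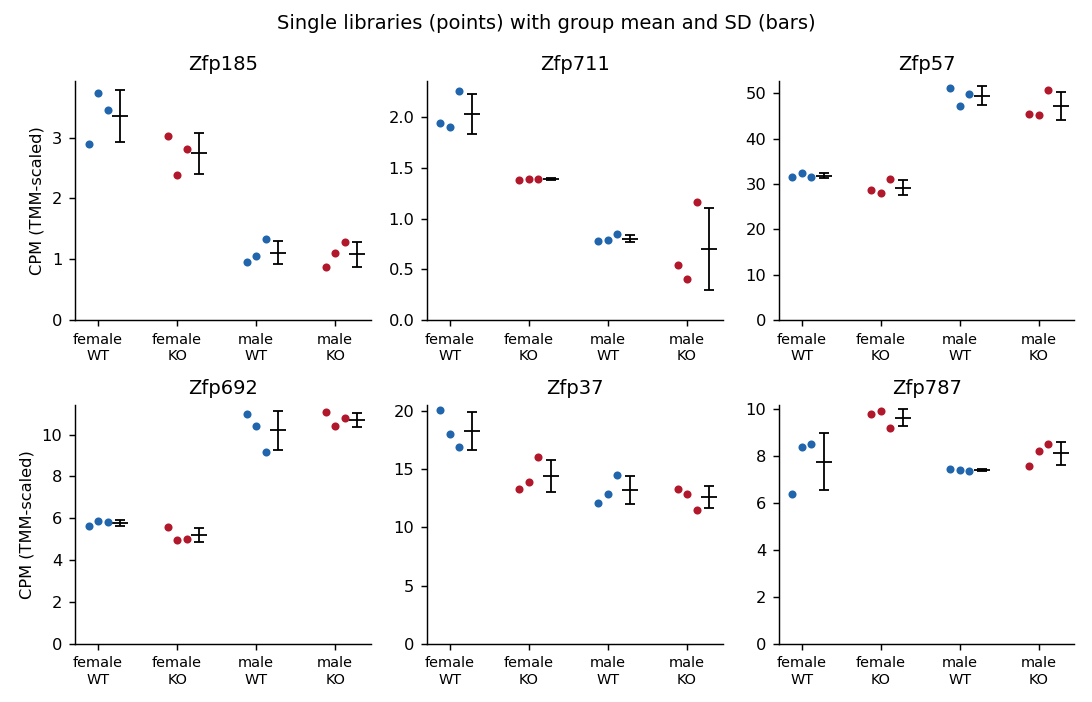
CPM of 6 members in each library (blue points wild type, red points *Firre* KO), with the mean and SD of each group (3 libraries) as black bars. *Zfp185* and *Zfp711* are high in female and low in male MEFs, *Zfp57* and *Zfp692* the other way. In *Zfp37* and *Zfp787* the female wild-type and *Firre* KO points do not overlap, while the male points of *Zfp37* do.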

How the data were processed

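Total RNA of 12 MEF samples (3 replicates of each genotype and sex, as labelled) was sequenced. The Hi-C files of the series were not used here. Per the study's methods and the submitters' processing notes, the authors aligned reads with Bowtie2 and estimated a count per gene with RSEM 1.2.29, and they deposited these expected counts without normalization. Reads that fit several genes are divided between them, so counts of similar members depend on that division.

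Expected counts were rounded and tested in edgeR 4.0.16 (R 4.3.3, limma 3.58.1) by its quasi-likelihood test, with TMM scaling, filterByExpr and 1 mean per group over all 12 libraries (8 residual degrees of freedom). P-values were adjusted over 15387 genes by the Benjamini-Hochberg method, and a call needs an adjusted p under 0.01 and a 2-fold change. CPM uses TMM library sizes. The SD of log2 CPM and all log2 levels use a prior count of 2. Intervals are 95%. Fingers and KRAB boxes were searched in translated coding sequences of NCBIM37, and promoters were taken from RefSeq (GRCm38.p6, 250 bases before to 50 after the start). Scripts were tested on simulated counts. DESeq2 1.42.0 was an alternative. Figures were drawn with matplotlib 3.10.9.

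Named members were the 6 highest and 3 lowest by TPM, every called member or otherwise the 3 with the smallest p per KO comparison, every called member between the sexes, the 3 largest and 3 smallest by spread, those beside the minimum, those on chromosome X, and lists by known role. The members and lists were chosen with earlier results of these data known. Depth was 42986516 to 65454660 expected counts per library, and with 3 replicates per group an exact permutation test of 1 gene cannot go below p = 0.1, so only the fit across genes was used. Alternatives were other scaling, filters, minimums, fits without each library, the replicate block, a GC correction and both male libraries numbered 3 left out, the last 2 chosen after the data were seen.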

Additional observations from a re-analysis of the deposited data

How the results depend on the processing

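No member was called with the deletion under any alternative run, in either sex, on average or for the difference between the sexes. Between female and male wild-type MEFs the 2 calls became 0 with a minimum mean count of 200, which removes both called members, and 76 at an adjusted p under 0.05 with no fold limit. With 1 library left out there were 1 to 3 calls. The median log2 fold change of members in that comparison ranged from −0.109 to 0.007 with 1 library left out, and was 0.008 without both male libraries numbered 3. With a minimum of 200 the share of counts was 0.5581% in female wild-type and 0.5416% in female *Firre* KO MEFs. *Zfp711* lost its call without each wild-type library, as given above. No called member changed direction under an alternative. Replicate numbers are shared by the groups, and the labels do not say what a number marks. Deviations of same-numbered wild-type and *Firre* KO libraries correlated at −0.164, −0.118 and −0.152 in female and at 0.0966, 0.216 and 0.333 in male MEFs. All 3 male values are positive, highest for the libraries numbered 3 that depart together, but not every pair is over 0.1, so the fit without the block was kept. With the replicate block, 0 members were called with the deletion and 2 between the sexes, and 20 female, 4 male and 18 averaged members had an unadjusted p under 0.05. The averaged effect and the difference between the sexes could not be fitted from only the 2 groups compared, since they need all 4. Depth limits the lowest members, with mean counts near 50, where the spread is widest.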
